A study of Bos taurus with 32 samples.

Results

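GHR, IGF1 and IGF2 are 3 of the 27607 Ensembl gene IDs in the count table of this study of calves, and they were chosen as genes of the growth axis. They appear there as ENSBTAG00000001335 (GHR, the growth hormone receptor), ENSBTAG00000011082 (IGF1, insulin-like growth factor 1) and ENSBTAG00000013066 (IGF2, insulin-like growth factor 2). All 3 had reads in each of the 32 libraries. GHR and IGF2 passed the filter on low counts in all 4 tissues, and IGF1 passed it in the pituitary, testicle and adrenal but not in the hypothalamus.

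Growth hormone from the pituitary binds GHR, a cytokine receptor of the cell surface that signals through JAK2 and STAT5 and, in the liver above all, raises transcription of IGF1. IGF1 and IGF2 are secreted peptides that drive growth through the IGF1 receptor, while the IGF2 receptor takes up and degrades IGF2. IGF2 is imprinted, being transcribed mainly from the paternal copy in many fetal tissues, and it is among the genes studied in the overgrowth syndrome that can follow embryo culture in cattle.

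Bulk RNA was sequenced from 4 tissues of 8 male Holstein calves, namely the adrenal, testicle, pituitary and hypothalamus, all carried by synchronized recipients and kept under similar conditions after birth. The 4 IVP calves (3208, 3209, 5833 and 5841) came from embryos produced in vitro. The 4 MOET control calves (3213, 3217, 3218 and 5932) came from embryos made in vivo by superovulation and artificial insemination. The labels name no strain difference, drug or genetic change between the groups. The sources used here give neither the culture conditions nor the parents of the calves, so embryo origin and parentage cannot be told apart. Age at collection was 98 to 104 days, except in MOET calf 3213 at 144 days. In calf order, the IVP calves weighed 36, 36, 41 and 40 kg at birth and the MOET calves 38, 35, 33 and 39 kg. Replicates are separate animals, each giving 1 library per tissue.

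Library totals ran from 17357283 to 23380330 counts, and the adrenal libraries were the shallowest, at up to 19483453 counts. Symbols could be matched to none of the other IDs, so the labelled tissues were not checked against named markers. Adrenal library 5833 stood apart in 1 respect: 87 IDs that were at least 8-fold higher in the adrenal than in each other tissue averaged 2.74 log2 CPM there, against 4.14 to 4.42 in the other 7 adrenals. Levels below are counts per 1000000 counted reads (CPM), scaled with TMM factors over all 32 libraries, and no gene is compared with another because transcript lengths were not used. Reads were not assigned to a strand. In the RefSeq assembly ARS-UCD2.0 GHR overlaps the lncRNA LOC112443004, IGF1 overlaps the lncRNA LOC112446717 and IGF2 holds MIR483, with INS and TH as its next genes on one side, so reads from overlapping transcripts cannot be told apart.

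The first question was where each gene was transcribed. Over the 8 calves GHR had its highest mean in the adrenal, IGF1 in the testicle and IGF2 in the adrenal, and all 3 had their lowest mean in the hypothalamus. The first place of GHR in the adrenal rested on the MOET calves (60.5 CPM), since in IVP calves the adrenal and pituitary means were 32.9 and 34.3 CPM. Among the IVP calves, only 3209 had less GHR in the adrenal than in the pituitary (16.6 and 32.9 CPM). GHR averaged 46.7 CPM ± 17.1 (SD, n = 8) in the adrenal, 30.6 ± 4.63 in the pituitary, then 19.9 ± 5.74 in testicle and 13.1 ± 5.11 in hypothalamus. The receptor level was 3.53-fold higher in the adrenal than in the hypothalamus, the ends of its order. IGF1 averaged 5.57 CPM ± 1.78 in the testicle, 1.05 ± 0.424 in the pituitary, 0.760 ± 0.252 in the adrenal and 0.530 ± 0.388 in the hypothalamus. IGF2 averaged 1781 CPM ± 160 in the adrenal, 879 ± 183 in the testicle, 112 ± 42.0 in the pituitary and 61.8 ± 57.6 in the hypothalamus. It had the widest span of the 3, with the adrenal 32.04-fold above the hypothalamus.

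**Figure D1:**
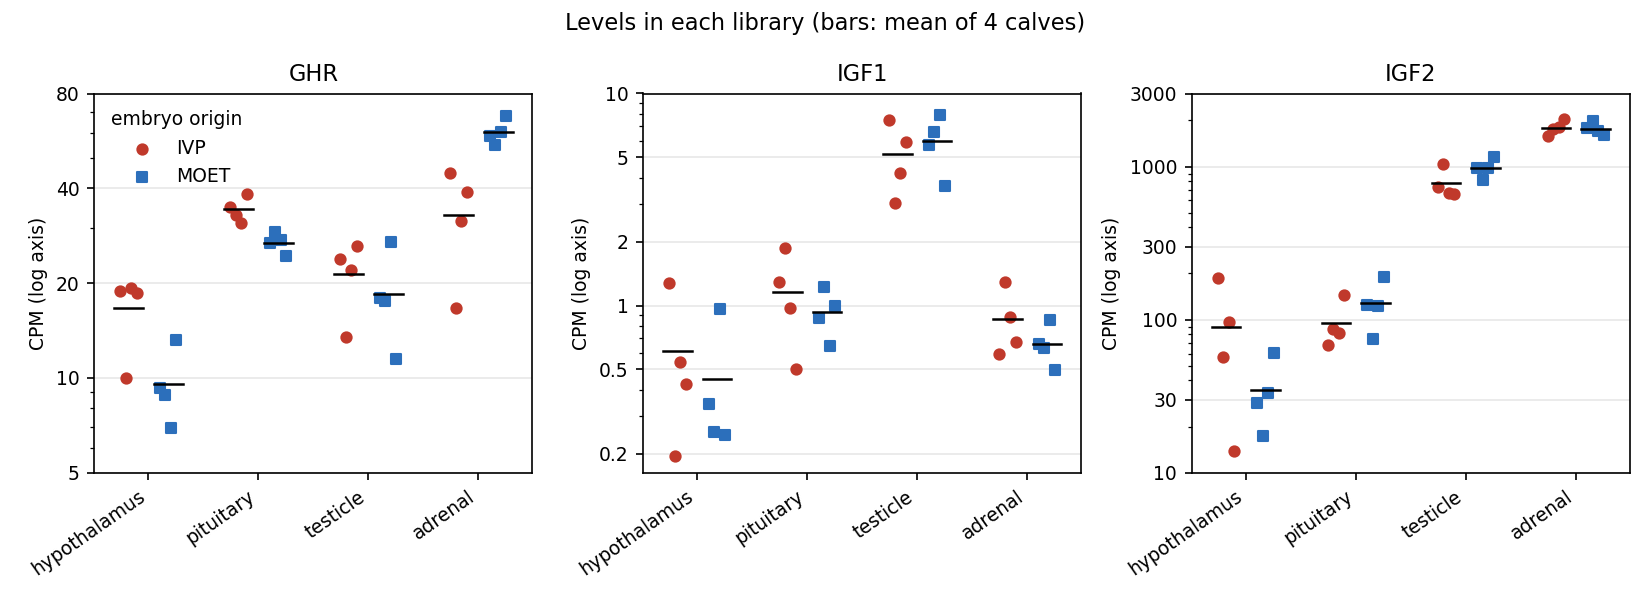
CPM (log axis) of GHR, IGF1 and IGF2 in each of the 32 libraries by tissue, with circles for IVP calves, squares for MOET calves and bars for the mean of 4 calves. Adrenal GHR is 54.9 to 67.8 CPM in the MOET calves and 16.6 to 44.8 in the IVP calves, while hypothalamic IGF2 runs from 13.9 to 187 CPM.

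The 6 pairs of tissues were compared with edgeR's quasi-likelihood test over all 32 libraries, where most of the 18242 genes tested passed in each pair: 77.7% for pituitary over hypothalamus, 82% for testicle over hypothalamus, 77.5% for adrenal over hypothalamus, 76.3% for testicle over pituitary, 80% for adrenal over pituitary and 76.3% for adrenal over testicle. GHR and IGF2 passed in 6 of 6 pairs and IGF1 in 4 of 6, so passing was the usual outcome for a gene here and the sizes say more than the counts. For GHR, the closest neighbours were adrenal over pituitary at log2 0.55 (SE 0.18, adjusted p = 0.00600 by edgeR with Benjamini-Hochberg adjustment, higher in 7 of 8 calves) and testicle over pituitary at log2 -0.61 (SE 0.18, adjusted p = 0.00310, lower in 8 of 8). The second of these lost its call when library totals were used without TMM factors (log2 -0.37, adjusted p = 0.108). IGF1 was higher in the testicle than in the pituitary in 8 of 8 calves, by log2 2.41 (SE 0.30, adjusted p = 2.846e-08). Among the other tissues the order of IGF1 was not resolved, since adrenal against pituitary (log2 -0.47, SE 0.32, adjusted p = 0.184) and adrenal against hypothalamus (log2 0.53, SE 0.35, adjusted p = 0.165) missed the threshold in the edgeR fit. Its pituitary level was above the hypothalamic level at adjusted p = 0.00885 (edgeR, log2 0.996, SE 0.34, higher in 7 of 8 calves). That call missed the threshold without calf 3209 or calf 3217 (highest adjusted p = 0.0561), and adrenal against hypothalamus passed it without calf 3208 (log2 0.92, adjusted p = 0.0194). IGF2 was higher in the adrenal than in the testicle in 8 of 8 calves, by 2.04-fold (log2 1.03, SE 0.30, edgeR adjusted p = 0.00316), and its smallest step between neighbours was pituitary over hypothalamus at 1.98-fold, seen in 6 of 8 calves (adjusted p = 0.00461).

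The study's main question was whether calves from in vitro embryos differ from MOET calves. Of the 11 tests of these genes within a tissue, 2 passed, both for GHR and in opposite directions. Pituitary GHR was 1.26-fold higher and adrenal GHR 1.83-fold lower in IVP calves. At the same adjusted threshold, 39.3% of all genes passed in the adrenal and 15.3% in the pituitary. In the hypothalamus 0.056% passed and in the testicle 0.00612%. Both GHR calls thus fell in the tissues where many genes were called. IGF1 and IGF2 passed in no tissue at an adjusted p under 0.05, and at an unadjusted p under 0.05 the count was also 0 in the edgeR fits. Of all genes, 50.9% had an unadjusted p under 0.05 in the adrenal, 9.04% in the testicle, 33.9% in the pituitary and 24% in the hypothalamus. In bulk tissue, fewer cells of a type and less RNA per cell cannot be told apart.

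**Figure D2:**
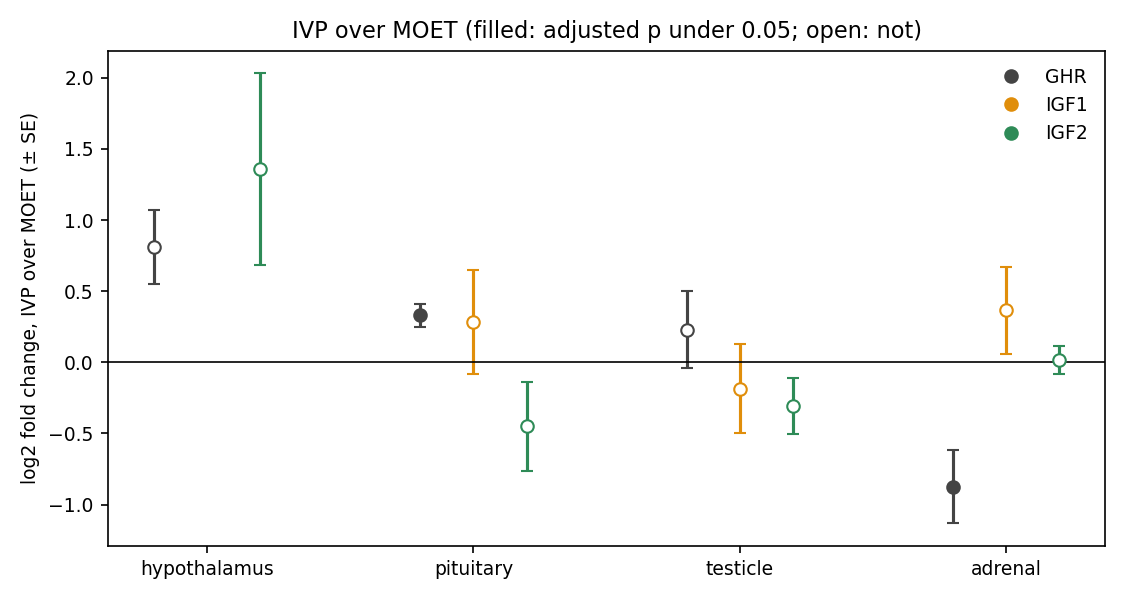
Log2 fold change of IVP over MOET calves with its SE for each gene and tissue (edgeR, 4 against 4 calves), filled where the adjusted p was under 0.05; IGF1 in the hypothalamus was not tested. The GHR points pass from 0.81 (hypothalamus) to -0.87 (adrenal), and adrenal IGF2 lies at 0.01.

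GHR in the adrenal was 44.8, 16.6, 31.4 and 38.8 CPM in the IVP calves 3208, 3209, 5833 and 5841. The MOET calves 3213, 3217, 3218 and 5932 had 58.8, 54.9, 60.2 and 67.8 CPM. Every IVP calf lay below every MOET calf, calf 3209 was the lowest, and the IVP values were spread more widely. The means were 32.9 CPM ± 12.2 against 60.5 ± 5.41 (SD, n = 4 each). In edgeR's quasi-likelihood test the log2 fold change was -0.87 (SE 0.26, 95% interval -1.50 to -0.25, adjusted p = 0.0282). A change of this kind was common in the adrenal: 39.3% of the 15437 genes tested passed and 39.1% did not overlap, with 18.5% called lower, so GHR stood with a large share of the transcriptome.

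The adrenal call missed the threshold without calf 3213 (log2 -0.90, edgeR adjusted p = 0.0579), 3218 (-0.88, 0.0700), 5833 (-0.85, 0.0731) or 5932 (-0.82, 0.0791) and with age as a covariate (-0.90, adjusted p = 0.0583), each time at nearly the same size. In these fits, in the same order, 19.5%, 15.6%, 16.1%, 19.9% and 18.8% of all genes passed, against 39.3% with all calves and no covariate. Only calf 3213 was far from the others in age, so the age covariate and leaving out calf 3213 are nearly the same check. The adrenal call vanished in the fit that carried the shared-axis score of the libraries described further on (log2 0.01, edgeR adjusted p = 0.994), in which 3 genes of 15437 were called. The adrenal scores of the groups did not overlap, so origin and score cannot be told apart in this tissue. Adrenal libraries also differed in composition between the groups, as the 100 most abundant genes took 29.9% to 30.8% of the counts in IVP calves and 24.9% to 27.4% in MOET calves; the part of this in the GHR difference was not tested.

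GHR in the pituitary, the gland that secretes growth hormone, was 34.8, 32.9, 31.1 and 38.4 CPM in the IVP calves. In the MOET calves it was 26.7, 29.0, 27.5 and 24.4 CPM. Again the groups did not overlap, here with the IVP calves higher and both groups tight, at 34.3 CPM ± 3.15 and 26.9 ± 1.89. The log2 fold change was 0.33 (SE 0.08, 95% interval 0.14 to 0.52, edgeR adjusted p = 0.0260). In this tissue 15.3% of 15807 genes passed, 7.51% as higher, and 22.9% did not overlap. The call missed the threshold without calf 3208 (log2 0.32, edgeR adjusted p = 0.0748) or calf 3213 (0.32, 0.0867), with age as a covariate (0.32, 0.0955), with the shared-axis score (0.43, 0.0698), and in 1 fit of all libraries (0.35, 0.584). In these fits, in the same order, 4.91%, 2.37%, 1.68%, 2.82% and 1.86% of all genes passed, so calls became fewer throughout the tissue. As in the adrenal, the age covariate largely repeats leaving out calf 3213.

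GHR in the hypothalamus was 18.9, 10.003, 19.3 and 18.6 CPM in the IVP calves. In the MOET calves it was 9.30, 8.80, 6.95 and 13.2 CPM. The groups overlapped only through IVP calf 3209, which lay below MOET calf 5932, and the other 3 IVP calves stood above all MOET calves. The difference was 1.75-fold, the log2 value 0.81 (SE 0.26), and the adjusted p by edgeR 0.161, in a tissue where 0.056% of 16066 genes passed, 9.93% did not overlap and 24% had an unadjusted p under 0.05, GHR among them at 0.0122. DESeq2 called it at log2 0.80 (adjusted p = 0.0454), and so did 1 edgeR fit of all libraries (0.80, adjusted p = 0.0468), but these called 1250 and 2018 genes in this tissue, against 9 in the edgeR fit of the tissue alone. With the shared-axis score in the edgeR model the value fell to 0.29 (adjusted p = 0.210).

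GHR in the testicle was 23.8, 13.5, 22.0 and 26.2 CPM in the IVP calves. The MOET calves had 17.9, 17.5, 26.9 and 11.4 CPM. The groups overlapped over nearly their whole range, and the lowest values belonged to MOET calf 5932 and IVP calf 3209. The log2 fold change was 0.23 (SE 0.27, 95% interval -0.44 to 0.90, edgeR adjusted p = 0.951), with 0.00612% of 16352 genes passing in the testicle and 7.11% not overlapping.

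Whether the GHR effect itself differed between tissues was tested with the origin by tissue term over all libraries. It did for GHR (edgeR adjusted p = 0.0112), while 30.3% of all genes passed this test, and it did not pass for IGF2 (adjusted p = 0.0681) or IGF1 (adjusted p = 0.720). With the calf as a block, the GHR value was 0.00426. The term missed the threshold without calf 3213 (0.0750), without calf 5833 (0.0712) and with the shared-axis score in the model (0.263). In these fits, in the same order, the term passed for 1.76%, 5.01% and 11.8% of all genes. For IGF2 it passed without calf 5841 (0.0116) or calf 5932 (0.0455), where 12.8% and 36.5% of genes passed.

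The IVP effect on GHR in the adrenal was then set against that in each other tissue; the other tissues were not contrasted among themselves. The IVP effect in the adrenal was below that in the hypothalamus by a difference of -1.68 log2 units (SE 0.36, edgeR adjusted p = 0.00244; 41.5% of genes passed). Against the pituitary the difference was -1.23 (SE 0.36, adjusted p = 0.0341; 10.5% passed). Against the testicle the difference was -1.09 (SE 0.36, adjusted p = 0.0696; 4.01% passed), and -1.13 with the calf as a block (adjusted p = 0.0321; 8.15% passed). The pituitary contrast missed the threshold when any of calves 3213, 3217, 3218, 5833, 5841 or 5932 was left out (adjusted p up to 0.127), and the testicle contrast passed it without calf 3209 (0.0150), where 25.7% of genes passed. With the shared-axis score in the model, the contrasts shrank to -0.56 against the hypothalamus (adjusted p = 0.194), -0.39 against the pituitary (adjusted p = 0.439) and -0.41 against the testicle (adjusted p = 0.2996). With the score, 1.49%, 0.57% and 1.95% of all genes passed in these contrasts, in the same order.

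Within each origin the order of GHR over the tissues was as follows. In MOET calves the adrenal exceeded the pituitary 2.25-fold (log2 1.17, SE 0.25, edgeR adjusted p = 2.185e-04). In IVP calves the adrenal and pituitary levels were 32.9 and 34.3 CPM, a log2 difference of -0.06 (SE 0.25, adjusted p = 0.842). Calf 3209 had 16.6 CPM in the adrenal and 32.9 in the pituitary. In calves 3208, 5833 and 5841 the adrenal and pituitary had 44.8 and 34.8, 31.4 and 31.1, and 38.8 and 38.4 CPM. Both groups kept the adrenal above the hypothalamus, by 6.31-fold in MOET calves and 1.97-fold in IVP calves.

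IGF1, the secreted ligand induced by growth hormone in liver, was scarce outside the testicle. Hypothalamic libraries held 28, 4, 13 and 9 IGF1 reads in the IVP calves and 7, 5, 16 and 5 in the MOET calves. These counts overlapped, the gene was below the filter, and the groups did not differ detectably at this depth (two-sided exact permutation p = 0.543, n = 4 each). The exact 95% counting interval of the lowest library was 1.09 to 10.2 reads and that of the highest 18.6 to 40.5, which covers counting error only.

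IGF1 in the pituitary was 1.29, 1.87, 0.979 and 0.503 CPM in the IVP calves and 0.871, 1.22, 0.644 and 0.992 CPM in the MOET calves. The IVP calves held both the highest and the lowest value, and the log2 fold change was 0.28 (SE 0.37, edgeR adjusted p = 0.616). In the adrenal, counts were 11 to 22 reads a library, or 0.589, 1.30, 0.882 and 0.672 CPM in IVP calves against 0.658, 0.633, 0.851 and 0.496 CPM in MOET calves. The ranges overlapped there too, at log2 0.37 (SE 0.31, 95% interval -0.38 to 1.11, edgeR adjusted p = 0.359).

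Testicular IGF1, the highest of the 4 tissues, was 7.53, 3.05, 4.21 and 5.92 CPM in the IVP calves. The MOET calves had 5.70, 6.57, 7.90 and 3.68 CPM. Calf 3209 was lowest among the IVP calves and calf 5932 among the MOET calves, the same calves that were lowest for testicular GHR. The log2 fold change was -0.18 (SE 0.31, 95% interval -0.94 to 0.57, edgeR adjusted p = 0.966).

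IGF2, the imprinted ligand, was steadiest where it was most abundant. The adrenal level was 1575, 1756, 1807 and 2034 CPM in the IVP calves. In the MOET calves it was 1791, 1973, 1702 and 1614 CPM. The ranges nearly coincided, with means of 1793 ± 189 and 1770.0 ± 153 CPM, and the log2 fold change was 0.01 (SE 0.10, edgeR adjusted p = 0.918). The 95% interval of -0.23 to 0.26 bounds the change within this tissue, in which 39.3% of genes were called.

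IGF2 in the testicle was 731, 1046, 675 and 659 CPM in the IVP calves and 974, 817, 983 and 1146 CPM in the MOET calves. IVP calves 3208, 5833 and 5841 lay below all MOET calves, and calf 3209 made the groups overlap. The log2 fold change was -0.31 (SE 0.20, 95% interval -0.78 to 0.17, edgeR adjusted p = 0.771), and it passed only with the shared-axis score in the model (-0.30, adjusted p = 0.0399), where 1997 genes were called against 1 without the score. IGF2 in the pituitary was 68.1, 87.0, 81.3 and 144 CPM in the IVP calves and 124, 74.6, 124 and 191 CPM in the MOET calves, overlapping, at log2 -0.45 (SE 0.31, edgeR adjusted p = 0.344).

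IGF2 in the hypothalamus varied most. The IVP calves had 187, 57.1, 96.7 and 13.9 CPM. In the MOET calves it was 28.4, 17.4, 33.0 and 60.4 CPM. IVP calves held both ends of this 13.5-fold range, so the groups overlapped. The log2 fold change of 1.36 had an SE of 0.67 (95% interval -0.29 to 3.01, edgeR adjusted p = 0.234). It passed in 1 fit of all libraries (1.35, adjusted p = 0.0450), where 11.1% of genes passed, and fell to 0.69 without calf 3208 (adjusted p = 0.514) and to 0.85 with the shared-axis score (adjusted p = 0.624). The SD within groups was 1.24 log2 units, at the 99.1 percentile of the genes tested in this tissue, while pituitary IGF2 was at the 95.5 percentile (0.51 log2 units) and adrenal IGF2 at the 31.0 percentile (0.14 log2 units).

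Carry-over of the neighbouring gland was looked at through IDs enriched in the pituitary. The 177 IDs at least 8-fold higher in the pituitary than in each other tissue took 0.152% of the counts in hypothalamus 3208, where IGF2 was highest, and 0.155% in hypothalamus 5841, where it was lowest. In calves 5833, 5932, 3209, 3218, 3213 and 3217, in falling order of IGF2, the shares were 0.595%, 0.286%, 0.294%, 0.193%, 0.177% and 0.114%. The mean log2 CPM of these IDs was highest in calves 5833, 3209, 5932 and 3208, at 1.51, 0.28, 0.08 and -0.12. These calves also had the highest IGF2. The other calves lay at -1.12 to -0.57. In the pituitary libraries these IDs took 24.7% to 39.0% of the counts. IGF2 was 187 CPM in the hypothalamus and 68.1 CPM in the pituitary of calf 3208, and 96.7 and 81.3 CPM in calf 5833. In the other calves the pituitary had the higher IGF2. The part of the pituitary in the spread of IGF2 was not tested. Nor was that of other neighbouring tissues, as no marker IDs could be named.

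Averaged over the 4 tissues of a calf, none of the 3 genes differed by origin. The log2 differences were 0.10 for GHR (SE 0.16, limma adjusted p = 0.886), 0.15 for IGF1 (SE 0.19, adjusted p = 0.852) and 0.06 for IGF2 (SE 0.18, adjusted p = 0.952), with 0.0658% of 18242 genes passing. IVP calf 3209 had the lowest mean GHR of all 8 calves, at 4.05 log2 CPM against 4.48 to 4.87 in the others. Without it, the GHR difference was 0.29 and passed (limma adjusted p = 0.0231), as did 10.3% of all genes in that fit.

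Libraries of each tissue also differed along an axis shared by the tissues. The first principal component of within-group log2 CPM was taken in each tissue, over 14025 genes. The signs of the components were matched to that of the hypothalamus. Each library was scored on the sum of the components of the other 3 tissues. Its own tissue thus did not set the weights, except that the hypothalamus set the relative signs. IVP calves scored lower than MOET calves in the adrenal (-0.19 ± 0.19 against 0.19 ± 0.10, SD, n = 4 each, two-sided exact permutation p = 0.0286, which is the lowest value possible with 4 calves a group). They scored higher in the pituitary (0.06 ± 0.03 against -0.06 ± 0.08, exact permutation p = 0.0286) and overlapped in the hypothalamus (exact permutation p = 0.114) and testicle (exact permutation p = 0.829). These directions are the same as those of GHR in the adrenal and pituitary. Composition was uneven outside the adrenal too. The 100 most abundant genes took 25.7% to 29.3% of hypothalamic counts in IVP calves and 30.6% to 34.1% in MOET calves. In the testicle the shares were 31.0% and 29.0% in calves 3209 and 5932, which scored lowest, and 23.8% to 25.6% in the others. Pituitary shares ran from 38.1% to 50.3% and the groups overlapped. The part of composition in the score was not tested.

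GHR rose with the score in 3 tissues. Pearson's r over the 8 calves was 0.968 in the hypothalamus (exact permutation p = 7.192e-04, adjusted over all genes 0.00462), 0.895 in the testicle (p = 0.00434, adjusted 0.0136) and 0.947 in the adrenal (p = 4.960e-05, adjusted 0.00141). Spearman's rho was 0.881 (exact permutation p = 0.00724), 0.833 (p = 0.0154) and 0.976 (p = 3.968e-04) in the same order. In the pituitary r was 0.488 (exact permutation p = 0.225, adjusted 0.420; rho 0.667, p = 0.0831). Leaving out the 2 calves farthest from the median score gave r of 0.954 in the hypothalamus, 0.726 in the testicle and 0.930 in the adrenal, and removing the origin means gave 0.983, 0.916 and 0.862. In the pituitary these values were 0.492 and -0.393, so the sign turned with origin means removed. Correlation with this score was widespread, passing for 57% of genes in the adrenal, 51.1% in the testicle, 47.6% in the hypothalamus and 15.4% in the pituitary, and an r at least as large in size as that of GHR was held by 10.8% of hypothalamic, 22.2% of adrenal, 33.2% of testicular and 53.3% of pituitary genes.

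**Figure D3:**
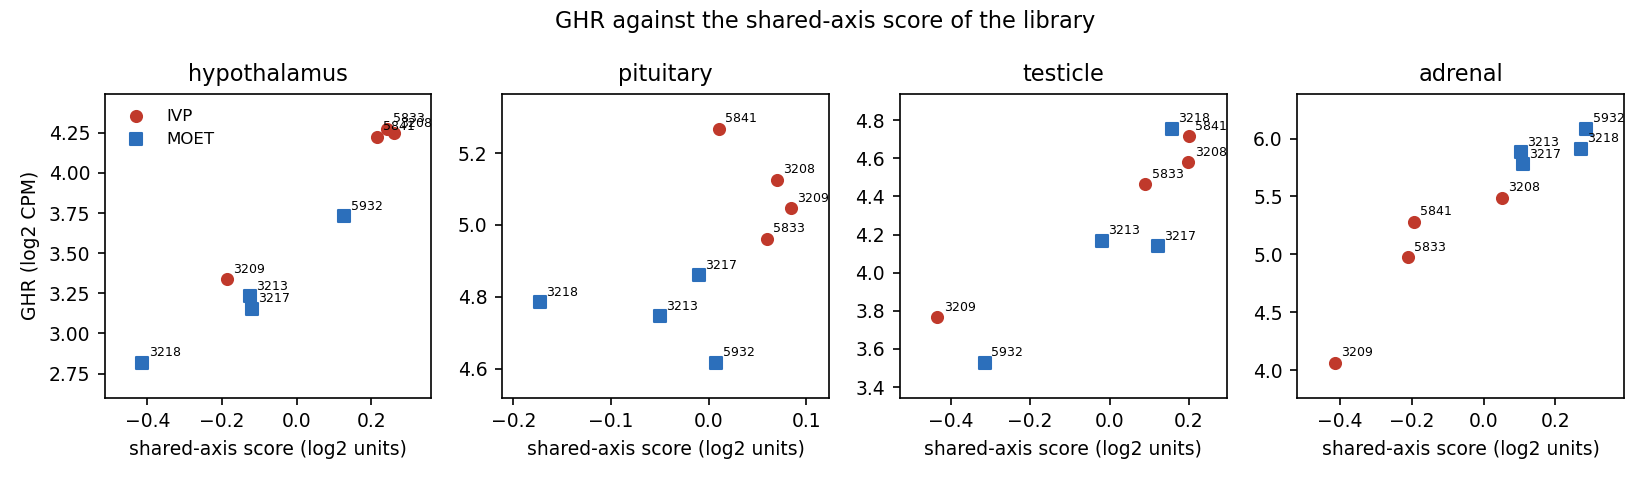
GHR (log2 CPM) against the shared-axis score of the library (log2 units), 1 panel per tissue and 1 point per calf, with circles for IVP and squares for MOET. The points rise together in the hypothalamus (r = 0.968), testicle (r = 0.895) and adrenal (r = 0.947), and are scattered in the pituitary (r = 0.488).

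Among the ligands, testicular IGF1 passed with this score, in a tissue where 51.1% of genes did. It had r of 0.870 (exact permutation p = 0.00536, adjusted 0.0155; rho 0.810, p = 0.0218), which fell to 0.469 without calves 3209 and 5932. Testicular IGF2 had r of -0.751 (exact permutation p = 0.0266, adjusted 0.0516; rho -0.738, p = 0.0458), which missed the threshold, and -0.511 without those calves. The other 5 correlations of IGF1 and IGF2 with the score, of 11 computed for the 3 genes, had adjusted p of at least 0.0734.

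The 3 genes were then compared with each other over the calves of a tissue, in 10 pairs. Testicular GHR and IGF1 had r of 0.757 (exact permutation p = 0.0332, adjusted over all genes 0.0783; rho 0.762, p = 0.0368), in a tissue where 31.1% of genes passed with GHR. Testicular GHR and IGF2 had r of -0.709 (exact permutation p = 0.0544, adjusted 0.111; rho -0.595, p = 0.132). Without calves 3209 and 5932, the farthest from the median GHR, the range of GHR was narrower and r was 0.290 and -0.273. With origin means removed r was 0.889 and -0.708. In the adrenal GHR and IGF1 had r of -0.831 (exact permutation p = 0.0152, adjusted 0.0298; rho -0.667, p = 0.0831), where 56% of genes passed with GHR. Without calves 3209 and 5833, the farthest from the median GHR in the adrenal, r was -0.13 over a narrower range. With origin means removed it was -0.878. Adrenal IGF1 rested on 11 to 22 reads a library. The exact 95% counting intervals of the lowest (5.49 to 19.7 reads) and highest (13.8 to 33.3) adrenal libraries overlapped. The other 7 pairs had adjusted p of at least 0.367.

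**Figure D4:**
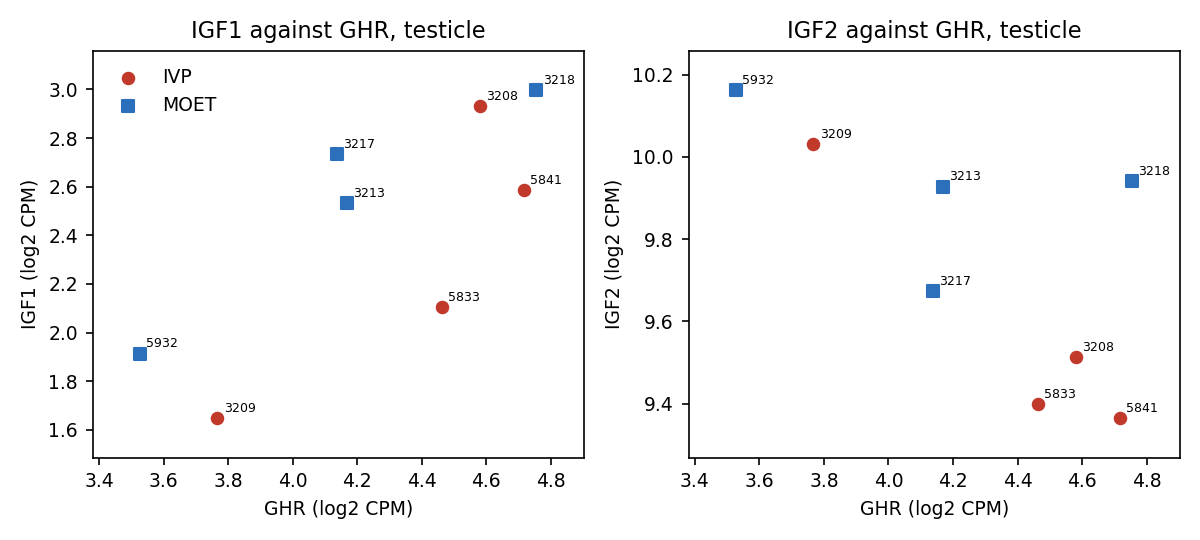
IGF1 (left) and IGF2 (right) against GHR in the testicle, all in log2 CPM, 1 point per calf, circles for IVP and squares for MOET. Calves 3209 and 5932 have the lowest GHR and IGF1 and the highest IGF2, and without them r falls from 0.757 to 0.290 and from -0.709 to -0.273.

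Birth weight and daily gain, the gain from birth to collection divided by age, were related to the 3 genes in 22 slopes within origin and 22 correlations. By edgeR, 0 of 22 slopes had an adjusted p under 0.05 and 1 had an unadjusted p under 0.05, and 0% of all genes passed in any tissue for either measure. Of the correlations, 0 of 22 had an adjusted p under 0.05, and 1 had an unadjusted p under 0.05.

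That 1 was GHR in the hypothalamus, which was higher in heavier calves. Calves 5833, 5841 and 5932 weighed 39 to 41 kg, and the calves numbered 3208 to 3218 weighed 33 to 38 kg. Birth weight and the number series of the calves can therefore not be fully told apart. Number series was not a term in these relations. The lightest calf, 3218 at 33 kg, had the lowest GHR, 6.95 CPM, and the heaviest, 5833 at 41 kg, the highest, 19.3 CPM. IVP calves 3208 and 3209 weighed 36 kg each at birth and had 18.9 and 10.003 CPM. Pearson's r was 0.741 (exact permutation p = 0.0420, adjusted over all genes 0.166) and Spearman's rho 0.778 (exact permutation p = 0.0295, adjusted 0.185). Without calves 3218 and 5833, the lightest and the heaviest, the range of weights was narrower and the relation did not hold (r = 0.448, adjusted p = 0.796 by exact permutation). With origin means removed r was 0.725. The edgeR slope within origin was 0.11 log2 units per kg (SE 0.04, unadjusted p = 0.0383 and adjusted p = 0.230 by edgeR), and it was 0.099 without calf 3218 and 0.12 without calf 5833. With the shared-axis score in the model the slope was 0.0091 (edgeR adjusted p = 0.927). Such relations were common in this tissue, at an unadjusted p under 0.05 for 21.1% of slopes and 29.2% of correlations. Without calf 3208 the slope was 0.16 (edgeR adjusted p = 0.0187) and r 0.931 (exact permutation adjusted p = 0.0353), and 27.5% of all slopes and 31.4% of all correlations in this tissue passed with GHR.

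**Figure D5:**
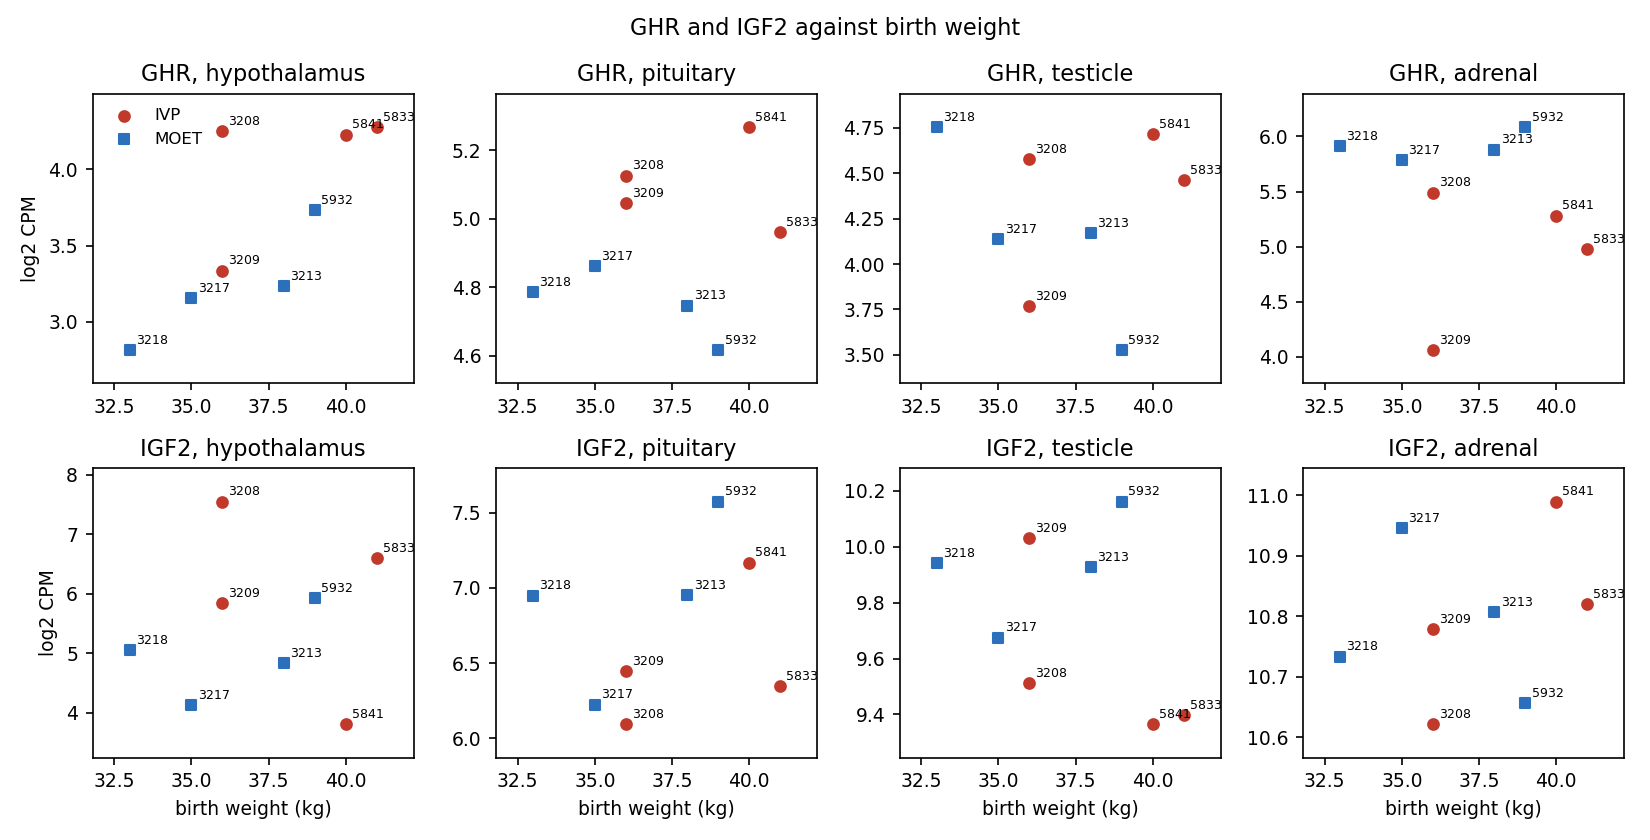
GHR (upper row) and IGF2 (lower row) in log2 CPM against birth weight in kg, 1 panel per tissue and 1 point per calf, circles for IVP and squares for MOET. Hypothalamic GHR is lowest in the 33 kg calf and highest in the 41 kg calf (r = 0.741), and hypothalamic IGF2 has an r of 0.071.

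IGF2, the gene linked to overgrowth, showed no detectable relation to birth weight in 8 calves. Pearson's r was 0.228 in the adrenal (exact permutation p = 0.577, adjusted 0.915; rho 0.323, p = 0.434), -0.383 in the testicle (p = 0.340, adjusted 0.99992; rho -0.407, p = 0.317), 0.281 in the pituitary (p = 0.496, adjusted 0.858; rho 0.371, p = 0.365) and 0.071 in the hypothalamus (p = 0.864, adjusted 0.909; rho 0.132, p = 0.761). The calf with the highest hypothalamic IGF2, 3208 at 187 CPM, weighed 36 kg, and the calf with the lowest, 5841 at 13.9 CPM, weighed 40 kg. For daily gain, which ran from 0.731 to 0.990 kg, the strongest of the correlations was pituitary GHR at r = 0.536 (exact permutation p = 0.168, adjusted 0.990; rho 0.476, p = 0.243). Its slope was 0.07 log2 units per 0.1 kg (SE 0.04, edgeR adjusted p = 0.99994).

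The gene most like each member over the 32 libraries was found by the correlation of log2 CPM, a description in which points share calves and tissues. For GHR it was ENSBTAG00000008446 (r = 0.963), at 19.1 CPM in the adrenal, 10.7 in the testicle, 14.0 in the pituitary and 6.57 in the hypothalamus. With group means removed its r with GHR was 0.881. For IGF1 it was ENSBTAG00000020505 (r = 0.954), at 77.1 CPM in the testicle and 16.0 to 30.7 elsewhere. For IGF2 it was ENSBTAG00000054745 (r = 0.977), at 808 CPM in the adrenal, 651 in the testicle, 18.5 in the pituitary and 6.75 in the hypothalamus. GHR had 28 genes with r above 0.9, IGF1 54 and IGF2 247 of 18242.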

How the data were processed

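Bulk RNA was measured in 32 libraries. RNA integrity numbers were over 7 per the labels' protocols, which also give non-stranded poly(A) libraries, paired reads of 100 bases from DNBSEQ and cleaning by SOAPnuke. STAR 2.7, HTSeq and bosTau9 are named per the submitters' processing notes; no annotation release or counting setting is given in the sources used here. The authors deposited raw counts per gene, with 0 entries naming no gene and 0 columns of other series.

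Within each tissue, genes kept by filterByExpr (minimum count 10, minimum total 15) were scaled with TMM factors and tested with edgeR's quasi-likelihood test (robust glmQLFit), adjusted with Benjamini-Hochberg over all genes at 0.05. Fits over all 32 libraries gave tissue contrasts and the origin by tissue term, limma with trend tested calf means of log2 CPM (prior count 2), and slopes had origin as a term. Permutation tests were two-sided and exact, over the 40320 orders of 8 calves for correlations. The fits were tested on simulated data: with 2-fold changes set for IVP over MOET, 90 of 96 changed genes were recovered in the hypothalamus, 95 of 99 in the pituitary, 85 of 96 in the testicle and 88 of 96 in the adrenal. The simulated libraries were drawn independently, with the same dispersion for every gene and no axis shared by libraries. The real within-group SD was 0.42 log2 units for hypothalamic GHR and 1.24 for hypothalamic IGF2. The recovered shares therefore do not carry over to the real libraries.

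A floor of 3 counts stands for 0.173 CPM in the smallest library. The calf number pairs libraries because it names the animal; deviations of libraries of a calf from their group means correlated on average at -0.03 to 0.21 (consensus 0.0862). Alternatives were other normalizations, DESeq2, no filter, covariates, a calf block, and leaving out calves in turn. The members and lists were chosen with earlier results of these data known. Contrasts of effects between single tissues, GHR contrasts within an origin, correlations among the 3 genes and with the shared-axis score, and the tissue-enriched IDs were added after the data were seen. Genes were named by rule: the 3 members and, for each, the ID with the highest r. Lists of growth-axis, imprinted and marker genes were not run, because 0 of 27607 IDs matched a symbol in the reference table, and no sequences were used. Tools were edgeR 4.0.16, DESeq2 1.42.0 and limma 3.58.1 under R 4.3.3, and Python 3.11.15 with numpy 2.4.6, pandas 2.3.3, scipy 1.17.1 and matplotlib 3.10.9.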

Additional observations from a re-analysis of the deposited data

Results flagged for a closer look

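Among 24 groups of 4 libraries examined for 1 library far from the other 3, of which chance gives about 5%, 2 stood out. GHR in the hypothalamus of IVP calf 3209 was 10.003 CPM, with the other 3 IVP calves at 18.6 to 19.3 CPM, a gap of 0.929 of the group's range. IGF1 in the hypothalamus of MOET calf 3218 was 0.959 CPM, or 16 reads, with the other 3 MOET calves at 0.246 to 0.345 CPM, a gap of 0.861 of the range. The IVP effect on GHR differed between tissues in the origin by tissue term over all libraries (edgeR adjusted p = 0.0112), at -0.87 log2 units in the adrenal, 0.23 in the testicle, 0.33 in the pituitary and 0.81 in the hypothalamus.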

How the results depend on the processing

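Alternatives to the within-tissue tests of IVP over MOET left 143 of 165 values with the same sign and side of the threshold, but 27 of these moved by over 1.5 times. Among them, hypothalamic GHR was 0.29 and IGF2 0.85 with the shared-axis score, and leaving out each calf gave 0.060 to 0.47 for testicular GHR, -0.41 to -0.0088 for testicular IGF1 and 0.69 to 1.77 for hypothalamic IGF2. Values that changed sign or side follow. DESeq2 called GHR in the hypothalamus (log2 0.80). Age as a covariate, which mainly sets calf 3213 apart, ended the GHR calls in the pituitary (0.32) and adrenal (-0.90). One fit of all libraries called hypothalamic GHR (0.80) and IGF2 (1.35) and ended the pituitary GHR call (0.35). The shared-axis score gave GHR 0.43 in the pituitary and 0.0090 in the adrenal, IGF1 -0.51 and -0.41 in those tissues, IGF2 -0.17 in the adrenal and a called -0.30 in the testicle; with it, GHR effect differences were -0.56 (adrenal minus hypothalamus) and -0.39 (minus pituitary), -0.41 (minus testicle, not called in either fit), and its origin by tissue adjusted p was 0.263 (edgeR). Library totals alone gave GHR -0.37 for testicle over pituitary. The replicate block, the calf, called the GHR effect difference of adrenal minus testicle (-1.13) and changed no other call. Leaving out each calf gave these ranges: GHR 0.27 to 0.37 (pituitary) and -1.07 to -0.65 (adrenal); IGF1 -0.043 to 0.53 (pituitary); IGF2 -0.049 to 0.065 (adrenal); origin by tissue adjusted p 0.00196 to 0.0750 for GHR and 0.0116 to 0.408 for IGF2 (edgeR); GHR adrenal minus pituitary -1.41 to -0.99 and minus testicle -1.33 to -0.86; IGF1 pituitary over hypothalamus 0.66 to 1.38 and adrenal over hypothalamus 0.28 to 0.92; calf means 0.016 to 0.29 for GHR and -0.082 to 0.20 for IGF2. Slopes turned sign, without a call, with no origin term for birth weight (IGF2 hypothalamus 0.024, GHR pituitary 0.014, GHR adrenal -0.044) and daily gain (hypothalamus GHR 0.071 and IGF2 0.16, adrenal GHR -0.071), with the score for testicular GHR on gain (-0.075), and with collection weight for GHR in the hypothalamus (0.00037) and testicle (-0.015). Leaving out each calf, slopes on birth weight ranged 0.079 to 0.16 (GHR, called without 3208 and 0.0091 with the score) and -0.13 to 0.11 (IGF2) in the hypothalamus, -0.10 to 0.018 (GHR) and -0.058 to 0.016 (IGF2) in the testicle, -0.018 to 0.087 (GHR) and -0.0021 to 0.026 (IGF2) in the adrenal; on gain, -0.11 to 0.084 (GHR) and -0.75 to 0.045 (IGF2) in the hypothalamus, -0.080 to 0.19 (GHR, testicle) and -0.031 to 0.13 (GHR, adrenal). Correlations with origin means removed turned for birth weight to -0.108 (IGF2 hypothalamus), -0.345 (GHR pituitary) and 0.275 (GHR adrenal), and for gain to -0.024 (GHR hypothalamus) and 0.169 (GHR adrenal). Without the 2 farthest calves they turned for birth weight to -0.313 (IGF2 hypothalamus), 0.101 (GHR testicle) and 0.268 (GHR adrenal), and for gain to -0.199 (GHR hypothalamus), -0.063 (IGF1 pituitary), 0.054 (IGF2 pituitary), 0.115 (IGF2 testicle), 0.522 (GHR adrenal) and -0.121 (IGF2 adrenal). Leaving out each calf, r with birth weight ranged 0.597 to 0.931 (GHR, called without 3208) and -0.171 to 0.375 (IGF2) in the hypothalamus, -0.117 to 0.423 (GHR) and -0.688 to 0.048 (IGF1) in the pituitary, -0.334 to 0.244 (GHR testicle), -0.554 to 0.053 (GHR) and -0.035 to 0.470 (IGF2) in the adrenal; with gain, -0.146 to 0.445 (GHR) and -0.740 to 0.019 (IGF2) in the hypothalamus, -0.017 to 0.472 (IGF1 pituitary), -0.200 to 0.511 (GHR testicle) and -0.233 to 0.136 (GHR adrenal). The cause of these moves was not tested; leaving out a calf also leaves fewer samples. Depth limits IGF1, with 4 to 38 reads a library outside the testicle.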
